A study of Mus musculus with 2 samples.

Results

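The 281 protein-coding transcripts described here, of 192 genes, had a higher intron to exon ratio in preexisting RNA than in newly made RNA. They were taken from 12040 well-expressed protein-coding transcripts of 5218 genes, and from 91702 transcripts with both an exon and an intron value in the whole series. A transcript was chosen by its measured values: exon and intron values above 0 in both libraries, a mean exon value of the libraries of at least 40, a labeled ratio of intron to exon under 1, and an unlabeled ratio not below the labeled ratio. The rule took 2.33% of the well-expressed transcripts, with a 95% Wilson interval over transcripts of 2.08 to 2.62%. Since these values chose the members, everything below on exon values, intron values and ratios is a description, and no test was made on it. Only the annotation (lengths, introns, what lies inside an intron, letters) was not used by the rule. It is not fully independent of the values, which are length-normalised. Overlaps and shared letters can also affect how reads are assigned.

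Both libraries came from wild-type DTCM23/49 XY mouse embryonic stem cells, feeder depleted and grown in serum with leukemia inhibitory factor. The cells took up 4-thiouridine (4sU, a uridine analogue) at 200 µM over 10 min, and the thiolated molecules were biotinylated, held on streptavidin beads and sequenced as the labeled library. RNA left in the supernatant gave the unlabeled library, which the labels call preexisting in one field and total in another. Each pool is 1 library, replicate 1, so no difference has a replicate check. The deposited values are length-normalised relative abundances that sum to 10 times a TPM total in each column, so that a value of 10 here is a TPM of 1, of which introns took 15.4% in the labeled and 6.26% in the unlabeled library. Read depth is unknown, so no counting error could be given. The 9 embryonic stem cell markers had summed exon values per gene of 87.4 to 6384 in labeled and 72.9 to 10031 in unlabeled RNA. The 6 fibroblast markers lay between 0 and 14.5, the 4 endoderm markers between 0 and 5.88 and the 3 mesoderm markers between 0.19 and 4.65 in the libraries. Of the 3 neural markers, Pax6 and Tubb3 reached 138 and 133 in labeled and 151 and 157 in unlabeled RNA. No marker gene had a member.

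An intron is removed from a precursor RNA while the RNA is made or soon after, and the lariat is then degraded, so newly made RNA is usually the richer in intron sequence. An intron can stay in a transcript when its splicing is slow, when the transcript is held in the nucleus, or when the annotated intron is an exon of another transcript of the gene. Most mouse introns start with GT and end with AG and are removed by the major spliceosome. A small class with a different 5′ splice site is removed by the minor, U12-type spliceosome. The model behind the study takes the labeled ratio to be the higher.

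The introns below are shown because they belong to members on which the results turn: Srsf2, Actg1, Arhgap21 and Gm14399 for their high unlabeled intron values, Hsd17b10 and Cd63 for their large difference between ratios, and Polr2e and Lsm5 for their splice site. A genome was not used here, so letters could be read only where an exon of another annotated transcript on the same strand holds the whole intron (GENCODE M21, GRCm38). Each intron is given 5′ to 3′ on the strand of its gene, and capitals mark its first and last 2 letters, or the U12-type motif GTATCCTT and the last 2 letters.
Srsf2-206 intron 2 of 4, 269 bases, chr11:116851752-116852020, minus strand: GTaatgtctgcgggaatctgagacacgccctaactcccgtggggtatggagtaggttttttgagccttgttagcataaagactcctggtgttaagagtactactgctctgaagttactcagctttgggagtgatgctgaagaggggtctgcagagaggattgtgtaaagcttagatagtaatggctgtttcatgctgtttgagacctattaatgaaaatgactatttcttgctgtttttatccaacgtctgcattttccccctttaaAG
Actg1-201 intron 2 of 4, 93 bases, chr11:120347876-120347968, minus strand: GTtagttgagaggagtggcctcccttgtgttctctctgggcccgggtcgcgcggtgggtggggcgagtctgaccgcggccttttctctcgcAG
Hsd17b10-201 intron 3 of 5, 127 bases, chrX:152003526-152003652, plus strand: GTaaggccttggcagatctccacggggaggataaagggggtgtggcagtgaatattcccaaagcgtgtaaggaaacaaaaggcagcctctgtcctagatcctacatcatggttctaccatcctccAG
Hsd17b10-201 intron 4 of 5, 80 bases, chrX:152003782-152003861, plus strand: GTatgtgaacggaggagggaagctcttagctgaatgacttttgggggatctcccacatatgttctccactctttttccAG
Cd63-201 intron 4 of 7, 98 bases, chr10:128911870-128911967, plus strand: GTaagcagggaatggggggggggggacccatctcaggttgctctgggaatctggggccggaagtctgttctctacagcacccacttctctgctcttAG
Arhgap21-213 intron 20 of 23, 185 bases, chr2:20855396-20855580, minus strand: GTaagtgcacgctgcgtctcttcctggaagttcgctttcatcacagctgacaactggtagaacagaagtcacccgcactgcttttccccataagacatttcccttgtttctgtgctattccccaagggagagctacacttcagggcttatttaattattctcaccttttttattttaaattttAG
Gm14399-202 intron 2 of 2, 252 bases, chr2:175130357-175130608, minus strand: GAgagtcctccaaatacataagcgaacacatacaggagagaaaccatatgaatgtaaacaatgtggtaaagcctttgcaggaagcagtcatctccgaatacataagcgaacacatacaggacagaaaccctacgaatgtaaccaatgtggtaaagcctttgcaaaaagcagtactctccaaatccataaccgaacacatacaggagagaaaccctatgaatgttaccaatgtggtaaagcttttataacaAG
Polr2e-201 intron 4 of 6, 72 bases, chr10:80036843-80036914, minus strand: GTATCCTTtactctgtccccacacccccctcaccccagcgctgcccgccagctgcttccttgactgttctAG
Lsm5-201 intron 2 of 4, 280 bases, chr6:56703034-56703313, minus strand: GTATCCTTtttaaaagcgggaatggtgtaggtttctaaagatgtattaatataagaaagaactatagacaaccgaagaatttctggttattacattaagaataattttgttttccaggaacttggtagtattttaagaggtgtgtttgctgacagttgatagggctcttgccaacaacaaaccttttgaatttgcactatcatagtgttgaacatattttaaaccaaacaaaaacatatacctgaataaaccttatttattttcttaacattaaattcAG

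Except for Gm14399, a retained-intron transcript of the same gene holds each of these introns, and no base of any of them is annotated as a UTR. The Gm14399 stretch starts with GA, not GT, and lies whole inside an exon of the coding transcript Gm14399-204. Letters were available for 153 of the 889 distinct introns of the members (17.2%) and for 3763 of 61927 of the other well-expressed transcripts with a labeled ratio under 1 (6.08%). Among those of at least 30 bases, GT-AG ends were found in 147 of 151 member introns (97.4%, 95% Wilson interval 93.4 to 99.0%) and in 3623 of 3736 others (97.0%). GC-AG ends were found in 1 of 151 and 55 of 3736 (1.47%), AT-AC ends in 0 of 151 and 8 of 3736 (0.214%). The U12-type 5′ splice sites ATATCCTT and GTATCCTT, searched at the intron start on the gene's strand, were found in 2 of 151 member introns (1.32%, interval 0.364 to 4.70%) and 22 of 3736 others (0.589%, interval 0.389 to 0.890%), intervals that overlap. The 2 member introns are those of Polr2e and Lsm5. Introns without letters were not searched.

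The members fell into 3 groups by the library in which each value was higher. In 204 transcripts of 137 genes both the intron and the exon value were higher in labeled RNA, in 39 transcripts of 32 genes the intron value was higher in unlabeled and the exon value in labeled RNA, and in 38 transcripts of 28 genes both were higher in unlabeled RNA. The intron value was thus higher in unlabeled RNA in 77 of 281 members (27.4%), against 1.74% of all well-expressed transcripts. The exon value was higher in labeled RNA in 243 of 281 (86.5%), against 23.1% of all well-expressed transcripts. Both shares are partly fixed by the rule, which needs a low intron difference or a high exon difference between the libraries. The rule also sets the log2 exon difference (labeled minus unlabeled) of every member at or above its log2 intron difference. Statements below on which value differed more follow from this.

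The median member had a log2 intron difference (labeled minus unlabeled) of 0.75, where the 11112 other well-expressed transcripts with a labeled ratio under 1 had 2.10. Its log2 exon difference was 1.35, where the others had -0.73. Most members therefore sat below the diagonal with both a smaller intron gain and a larger exon gain in labeled RNA than the median of the others. The log2 of the unlabeled over the labeled ratio had a median of 0.43 among members, quartiles 0.21 and 0.89, and of -2.79 among the others. In the group with both values higher in labeled RNA the median log2 exon difference was 1.57 and the median log2 intron difference 1.1. In the group with both values higher in unlabeled RNA they were -0.52 and -1.06, and in the mixed group 0.82 and -0.21.

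**Figure D1:**
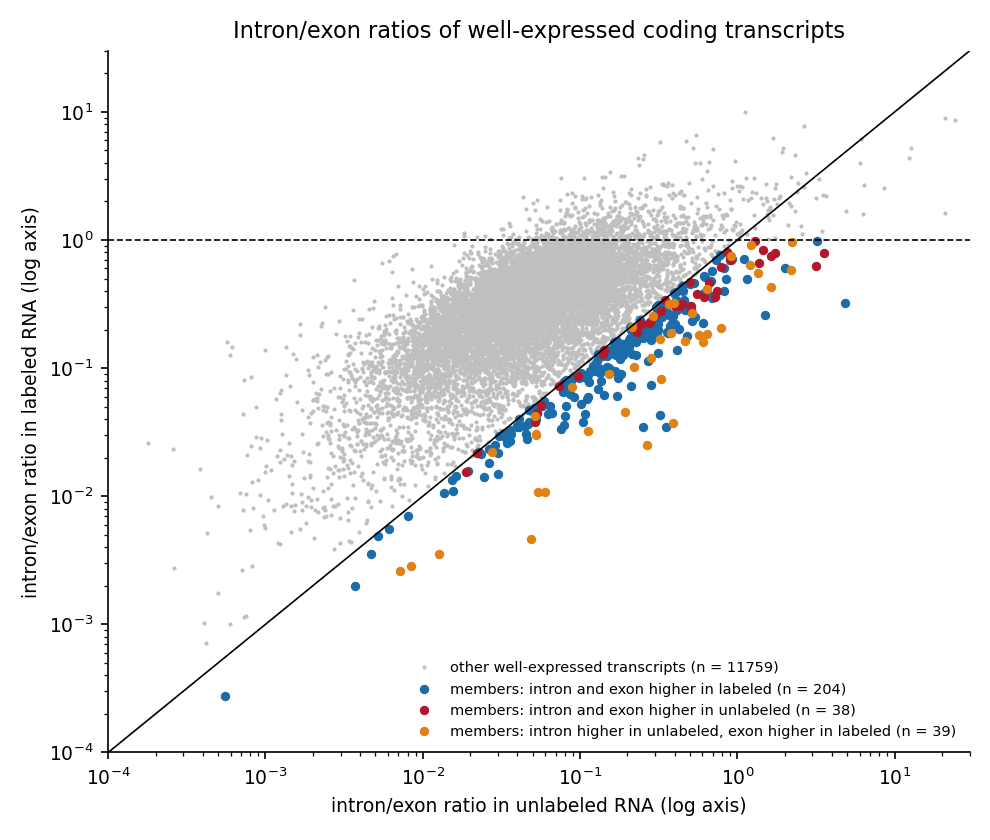
Intron/exon ratio in unlabeled RNA (x, log axis) against that in labeled RNA (y, log axis) for each well-expressed protein-coding transcript, with members coloured by group, the line of equal ratios solid and the labeled ratio of 1 dashed. The 281 members lie on or below the solid line and under the dashed line, as the rule sets, and 19 of them have an unlabeled ratio of 1 or more.

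**Figure D2:**
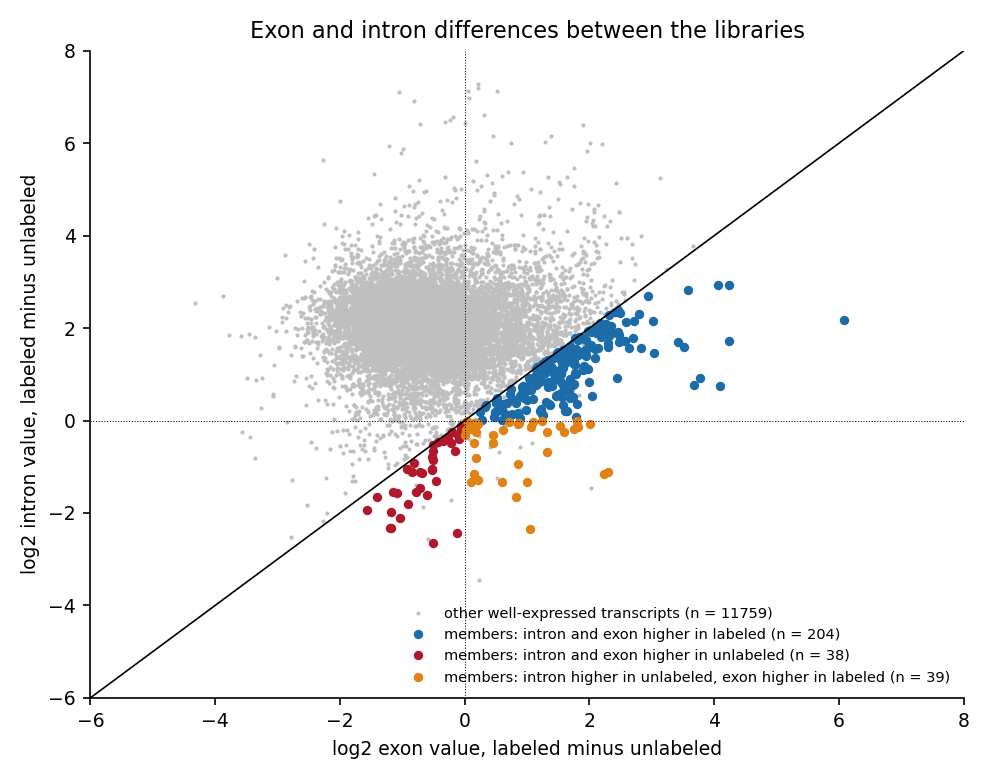
Log2 difference of the exon value (x) and of the intron value (y), labeled minus unlabeled, for each well-expressed protein-coding transcript; the solid line marks equal differences and dotted lines mark 0. The 204 members with both values higher in labeled RNA extend to the right of the cloud of other transcripts, and the 77 members with a higher intron value in unlabeled RNA lie below 0 on the y axis.

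Members lay close to the limit more often than far from it. The unlabeled ratio was at most 1.2 times the labeled ratio in 88 of 281 members (31.3%) and at least 2 times in 56 members of 39 genes (19.9%). Of the members, 47 were within 1.1 times the labeled ratio, and 76 other transcripts stood above 0.9 times on the other side. The 5 members nearest to equal ratios had unlabeled ratios of 1.00 to 1.02 times the labeled ratio, and the 5 nearest outside had 0.992 to 0.999 times. At the limit on the exon value, the 5 nearest members had mean exon values of 40.1 to 40.8, and the 5 nearest outside had 39.4 to 39.5. The intron value was under 1 in both libraries in 8 members of 5 genes (2.85%), and in 11 of the 11112 others (0.0990%).

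Srsf2, an SR-family splicing factor known to regulate the splicing of its own transcript, had the highest intron values of all members. The transcript Srsf2-206 (chr11:116850054-116853072, minus strand) had an intron value of 1037 in labeled and 3034 in unlabeled RNA. Its exon value was 1050 in labeled and 2330 in unlabeled RNA. Both values were higher in unlabeled RNA, and the unlabeled ratio was 1.30. The unlabeled ratio was 1.32 times the labeled one. Of its 1693 intron bases, 86.1% are exonic in other Srsf2 transcripts. Summed over the coding transcripts of Srsf2, the ratio was 0.404 in labeled and 0.364 in unlabeled RNA, so the gene sum lost the excess.

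Actg1, cytoplasmic gamma actin, showed the same order. Its intron value was 220 in labeled and 653 in unlabeled RNA, and its exon value 690.0 and 1469. The microRNA gene Mir6935 lies inside an intron on the same strand, and 63.4% of the intron bases are exonic in another coding transcript of Actg1. Lamc1, a laminin chain of the basement membrane, had intron values of 57.0 and 218 and exon values of 81.5 and 243, again both higher in unlabeled RNA. Summed over coding transcripts, both genes lost the excess. The labeled and unlabeled ratios were then 0.121 and 0.0945 in Actg1 and 0.492 and 0.311 in Lamc1.

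Arhgap21 was a member of great intron length. The 4 members among its 7 well-expressed transcripts had 112831 to 113612 intron bases. The most abundant had an intron value of 54.0 in labeled and 270.0 in unlabeled RNA and an exon value of 67.9 and 155. Its unlabeled ratio was 1.74. In all 4 both values were higher in unlabeled RNA, but the 4 share exons, introns and libraries. In Atf2, which encodes a bZIP transcription factor, 8 of 11 well-expressed transcripts were members. Their intron values were 47.7 to 56.6 in labeled and 99.1 to 190 in unlabeled RNA. The 8 were chosen by these values and share exons, introns and libraries, so they are not replicates. The other 3 well-expressed Atf2 transcripts were not members. Summed over the coding transcripts of Atf2, the exon value was 1987 in labeled and 3325 in unlabeled RNA and the intron value 559 and 1180.

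Long members such as these were few. Of 281 members, 19, of 11 genes, had over 50000 intron bases, and the intron value was higher in unlabeled RNA in 11 of them (57.9%). Isoforms of Atf2 and Arhgap21 made up 10 of these 11, and among the 9 long members of the other 9 genes it was so in 1, that of Peak1. It was so in 66 of the 262 members with fewer intron bases (25.2%). Peak1, a pseudokinase of the cytoskeleton, and Wdr92 lie outside the naming rule and were chosen after their values were seen, as the members with the largest rise of the intron value from labeled to unlabeled RNA. Peak1 had an intron value of 30.5 in labeled and 192 in unlabeled RNA beside exon values of 38.2 and 54.4. Wdr92, with 19877 intron bases, had intron values of 30.9 and 167 beside exon values of 48.8 and 52.9. In both, the intron value was several times higher in unlabeled RNA, and the exon value was higher there by less, as the rule sets.

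Cct3, a subunit of the cytosolic chaperonin that folds actin and tubulin, had the largest difference of ratios among members with a mean exon value of at least 100. The transcript Cct3-209 had an exon value of 1082 in labeled and 522 in unlabeled RNA, and an intron value of 4.98 and 25.5. The exon value was higher in labeled and the intron value in unlabeled RNA, so that the unlabeled ratio was 10.6 times the labeled one. Its 2 introns hold 244 bases in all, and every one of them is exonic in other Cct3 transcripts, a coding one included. Summed over the coding transcripts of Cct3, the ratio was 0.0983 in labeled and 0.0438 in unlabeled RNA, so the gene sum lost the excess. Serf2 followed with 10.5 times, from exon values of 191 and 38.96 and intron values of 4.83 and 10.4, but 92.1% of its 31-base words occur in another gene, so its values are uncertain.

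Hsd17b10, a mitochondrial dehydrogenase that is also part of mitochondrial RNase P, had an exon value of 197 in labeled and 112 in unlabeled RNA and an intron value of 2.13 and 6.70, a difference of 5.54 times. Both of its well-expressed transcripts were members, and none of its 31-base words occurs in another gene. Stk38, a kinase of the NDR family, had intron values of 42.5 and 81.3 beside exon values of 230 and 127, or 3.45 times. Summed over the coding transcripts of Stk38, the ratio was 0.293 in labeled and 0.176 in unlabeled RNA, so the gene sum lost the excess. Cd63, a tetraspanin of late endosomes, had exon values of 161 and 53.6 and intron values of 0.57 and 0.68, both under 1, so that its 3.59 times rests on very low intron values. Cstb, the protease inhibitor cystatin B, was alike, with exon values of 202 and 188 and intron values of 0.53 and 1.34. The largest difference of all, 15.0 times, was that of the class I histocompatibility gene H2-T24, again chosen after its values were seen, which had an exon value of 120 in labeled and only 1.76 in unlabeled RNA beside intron values of 38.6 and 8.52.

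Mrpl33, Polr2h and U2af1 were members with both values higher in labeled RNA. Mrpl33, of the large subunit of the mitochondrial ribosome, had exon values of 305 in labeled and 56.0 in unlabeled RNA and intron values of 22.3 and 11.7, or 2.86 times. Polr2h, a subunit shared by the nuclear RNA polymerases, had exon values of 195 and 55.8 and intron values of 7.42 and 5.79, or 2.72 times. U2af1, which recognises the AG at the 3′ splice site, had exon values of 263 and 111 and intron values of 61.8 and 56.6, or 2.18 times. In all 3 the exon value was the more raised in labeled RNA, as the rule sets. Of the 31-base words of U2af1, 63.9% occur in another gene, so its values are uncertain. Cnn3, the actin-binding calponin 3, had the only intron of Cnn3-205 (383 bases) whole inside exons of its other coding transcripts, with intron values of 163 and 227 and exon values of 257 and 189.

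**Figure D3:**
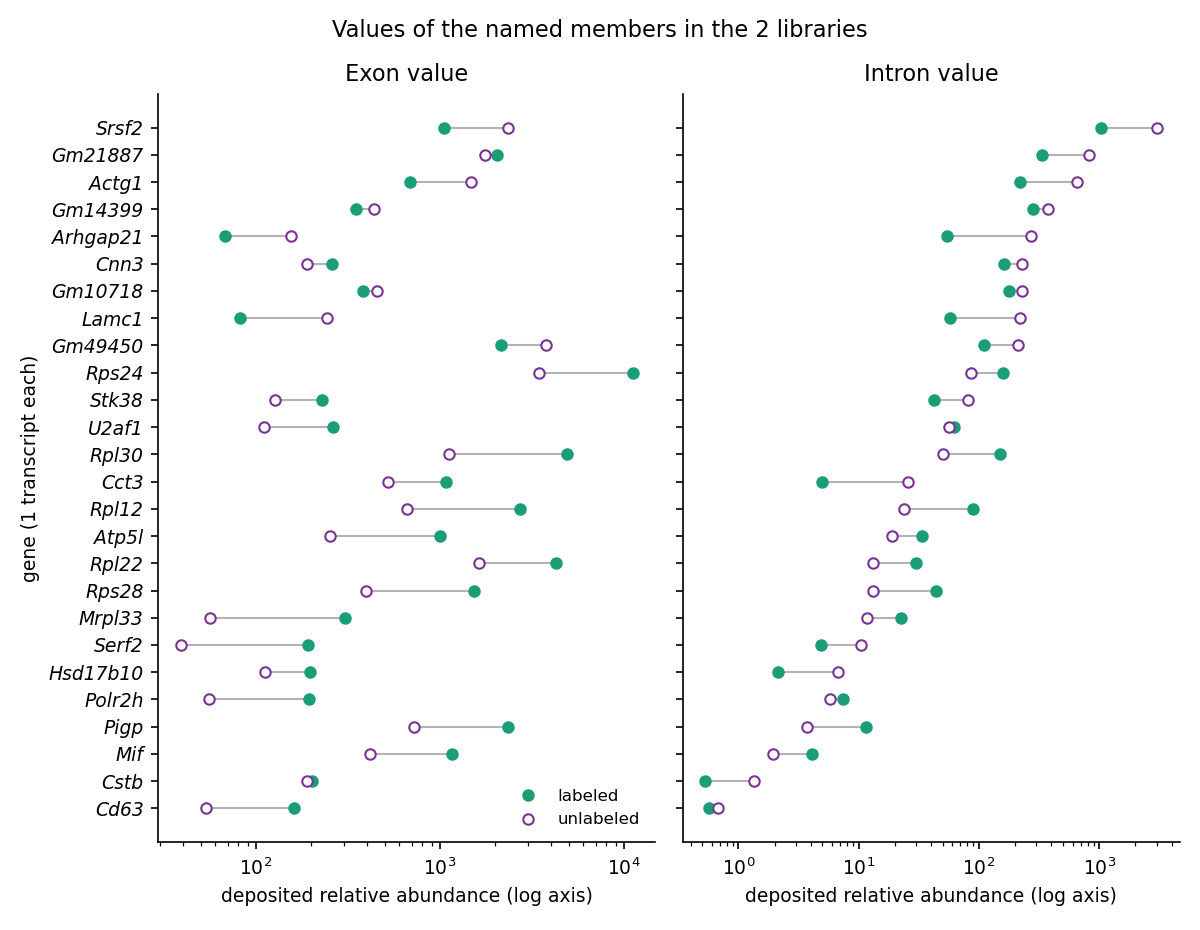
Exon value (left) and intron value (right) of the members named by abundance, by difference of ratios or by unlabeled intron value, 1 transcript per gene, in labeled (filled) and unlabeled (open) RNA on log axes, ordered by unlabeled intron value. Srsf2, Actg1, Arhgap21 and Lamc1 have open points to the right in both panels, while Rps24, Rpl30 and Mrpl33 have filled points to the right in both.

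Ribosomal protein transcripts were among the most abundant members, and the first 3 by mean exon value were of Rps24 and Rpl30. Rps24, of the small ribosomal subunit, had an exon value of 11113 in labeled and 3459 in unlabeled RNA and an intron value of 158 and 85.2. Rpl30, of the large subunit, had exon values of 4897 and 1115 and intron values of 150 and 50.2. Rpl22 had exon values of 4250 and 1633 and intron values of 29.7 and 13.2. Each exon value was thus several times higher in labeled RNA, and each intron value was higher there by less, as the rule sets. Rpl12 and Rps28 were of the same kind, with unlabeled ratios 1.09 and 1.15 times the labeled ones. Only 1 of 5 well-expressed Rps28 transcripts was a member. Summed over coding transcripts, Rps28 lost the excess, with ratios of 0.0216 in labeled and 0.0116 in unlabeled RNA. All 11 member transcripts of the 6 cytosolic ribosomal protein genes had both values higher in labeled RNA, and their median share of 31-base words found in another gene was 56.2%. Processed pseudogenes of these genes are common, so reads may have been split between copies, which was not tested. Pigp, of the first step of glycolipid anchor synthesis, and Mif, a cytokine, also had both values higher in labeled RNA, with exon values of 2328 and 720 and of 1154 and 416. Of the 31-base words of Pigp 62.3%, and of Mif 87.4%, occur in another gene, so these values are uncertain.

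Gene lists were read against the 2.33% of all well-expressed transcripts. The subunits and assembly partners of oxidative phosphorylation, the respiratory complexes and ATP synthase of the mitochondrial inner membrane, had 32 members among 166 transcripts (19.3%, interval 14 to 25.9%), of 18 among 83 genes. Mitochondrial ribosomal proteins had 15 of 101 transcripts (14.9%, interval 9.21 to 23.1%), of 8 among 55 genes. These were the highest shares of the 22 lists, and both intervals lay above 2.33%. Isoforms share exons and reads, so intervals over transcripts, here and throughout, are too narrow. Cytosolic ribosomal proteins had 11 of 208 (5.29%), RNA helicases 4 of 68 (5.88%) and translation factors 6 of 141 (4.26%), the last all of Eef1d, an elongation factor subunit.

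All 32 members of the oxidative phosphorylation list had a higher exon value in labeled RNA, and 5 a higher intron value in unlabeled RNA. Atp5l, subunit g of ATP synthase, had exon values of 1003 in labeled and 251 in unlabeled RNA and intron values of 33.7 and 18.9, or 2.25 times. Of its 31-base words, 85.4% occur in another gene, so its values are uncertain. Cox6c and Cox7b, of cytochrome c oxidase, had exon values of 889 and 272 and of 724 and 233. Their intron values were 27.0 and 9.81 and 36.9 and 13.4. Atp5mpl, a small ATP synthase subunit, had exon values of 787 and 140 and intron values of 11.4 and 2.26. In these 4 both values were higher in labeled RNA, the exon value at least as strongly, as the rule sets. Uqcrh, the hinge protein of complex III, had nearly equal intron values of 56.7 and 57.7 beside exon values of 557 and 261. It and the complex I subunits Ndufs7 and Ndufv1 were chosen after their values were seen, as the genes of the list with a higher intron value in unlabeled RNA. Ndufs7-201 and Ndufv1-207 had intron values of 2.62 and 3.27 and of 14 and 15.2, slightly higher in unlabeled RNA. The median transcript of the whole list had a log2 exon difference of 1.11, a log2 intron difference of 2.03 and a log2 ratio difference of -1.02, so that most of the list stayed above the line of equal ratios.

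Of the mitochondrial ribosomal proteins, Mrpl52, Mrpl24 and Mrps7 were members beside Mrpl33. Mrpl52 had exon values of 303 in labeled and 81.5 in unlabeled RNA and intron values of 37.3 and 10.8. Mrpl24 had exon values of 232 and 146 and intron values of 38.8 and 29.6. Mrps7 lay at the limit, with exon values of 81.0 and 64.0, intron values of 6.59 and 5.21 and ratios that differed by 1.00 times. None of the 15 members of this list had a higher intron value in unlabeled RNA, against 27.4% of all members. The median log2 intron difference of the whole list was 1.83.

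The other lists held few members. RNA polymerase II and Mediator had 3 of 134 transcripts (2.24%): Polr2h, Polr2e, which is shared between the polymerases, and Med28 of Mediator, with exon values of 197 and 104 for Polr2e and of 126 and 35.8 for Med28. Splicing factors had 4 of 265 (1.51%), of Srsf2, U2af1 and Snrnp25, a protein of the minor spliceosome with exon values of 66.6 and 19.8 and intron values of 3.83 and 2.21. Chaperones had 3 of 129 (2.33%), which were Cct3, the prefoldin subunit Pfdn5 and the mitochondrial import factor Dnajc19. Dnajc19 had intron values of 137 and 129 beside exon values of 139 and 40.4. Its unlabeled ratio was 3.20. The helicases Dhx16, of the spliceosome, and Dhx30, of mitochondrial ribosome assembly, had exon values of 169 and 76.0 and of 157 and 42.6 beside intron values of 21.6 and 10.5 and of 25.03 and 9.02. Mitosis and cell cycle had 3 of 177 (1.69%), of Cdc26, a subunit of the anaphase-promoting complex, and Ccnb1ip1, and solute carriers 2 of 115 (1.74%), both of the nucleoside transporter Slc29a1. Zinc finger proteins had 1 of 381 (0.262%) and chromatin regulators 1 of 251 (0.398%), a transcript of the DNA methyltransferase Dnmt3a. No member was found among 39 transcripts of glycolysis enzymes, 38 of tRNA synthetases, 34 of pluripotency factors and 9 of Clk kinases, where counts of 0 leave 95% Wilson upper bounds of 8.97, 9.18, 10.2 and 29.9%. The remaining 6 lists had 1 or 2 members each, 0.559 to 1.33% of their transcripts. In all, 92 members were in a list and 189 in none.

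**Figure D4:**
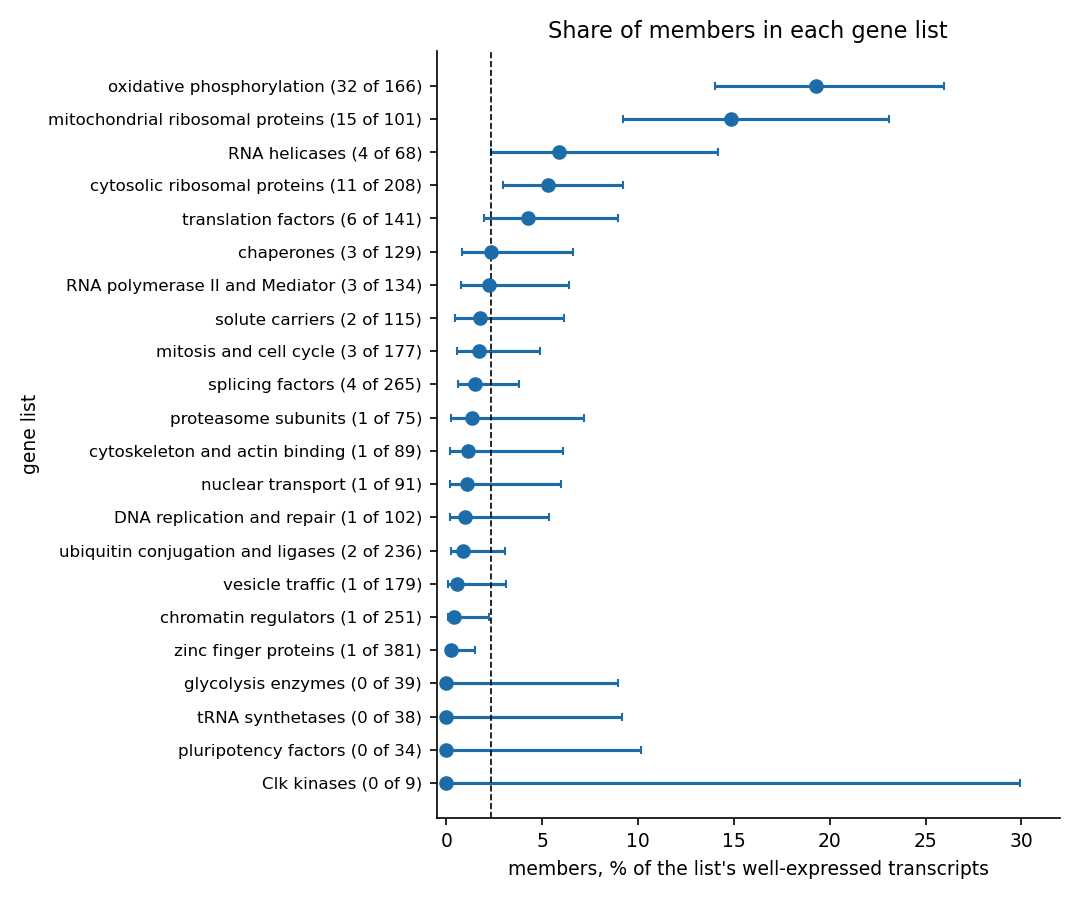
Members as a percentage of the well-expressed transcripts of each gene list (points), with 95% Wilson intervals over transcripts (bars); the dashed line marks 2.33%, the share over all well-expressed transcripts. Oxidative phosphorylation (19.3%) and mitochondrial ribosomal proteins (14.9%) lie farthest to the right, and 4 lists are at 0.

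By annotation, which the rule did not use, members were short and had few introns. The median member had 3 introns, 5301 intron bases and 768 spliced bases. The median of the other well-expressed transcripts with a labeled ratio under 1 was 8 introns, 20600 intron bases and 2288 spliced bases. Of the members, 192 (68.3%, interval 62.7 to 73.5%) had under 1000 spliced bases, against 23.8% of the others. With 1 transcript per gene, the most abundant, these shares were 66.7% and 19.8%.

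The share of members fell with length, from 8.42% of transcripts up to 500 spliced bases to 0.344% of those of 2500 to 4000. By intron bases it fell from 14.6% (33 of 226) up to 1000 bases to 0.390% (12 of 3074) between 20000 and 50000, and above 50000 it was 0.724%. Among transcripts with both under 1000 spliced and under 5000 intron bases, 106 of 1054 were members (10.1%, interval 8.38 to 12.02%), and among those with neither 58 of 7744 (0.749%, interval 0.580 to 0.967%). The exon value varied with length in the other transcripts too, but not steadily. Their median log2 exon difference was -0.35 up to 500 spliced bases, -0.17 from 1000 to 1500 and -1.07 above 4000. The share of members was already lower, 3.11%, from 1000 to 1500 bases. The part of the exon value in the shares was not tested.

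Within the transcripts under 1000 spliced bases, the highest share was that of RNA helicases, with 4 of 14 (28.6%), all of Dhx16 and Dhx30. Summed over coding transcripts, both genes lost the excess, with log2 ratio differences of -0.11 and -0.40. The members were 26 of 120 oxidative phosphorylation transcripts of this length (21.7%), 10 of 50 mitochondrial ribosomal protein transcripts (20%) and 8 of 160 cytosolic ribosomal protein transcripts (5.00%). The last share was under the 6.202% of all short transcripts.

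**Figure D5:**
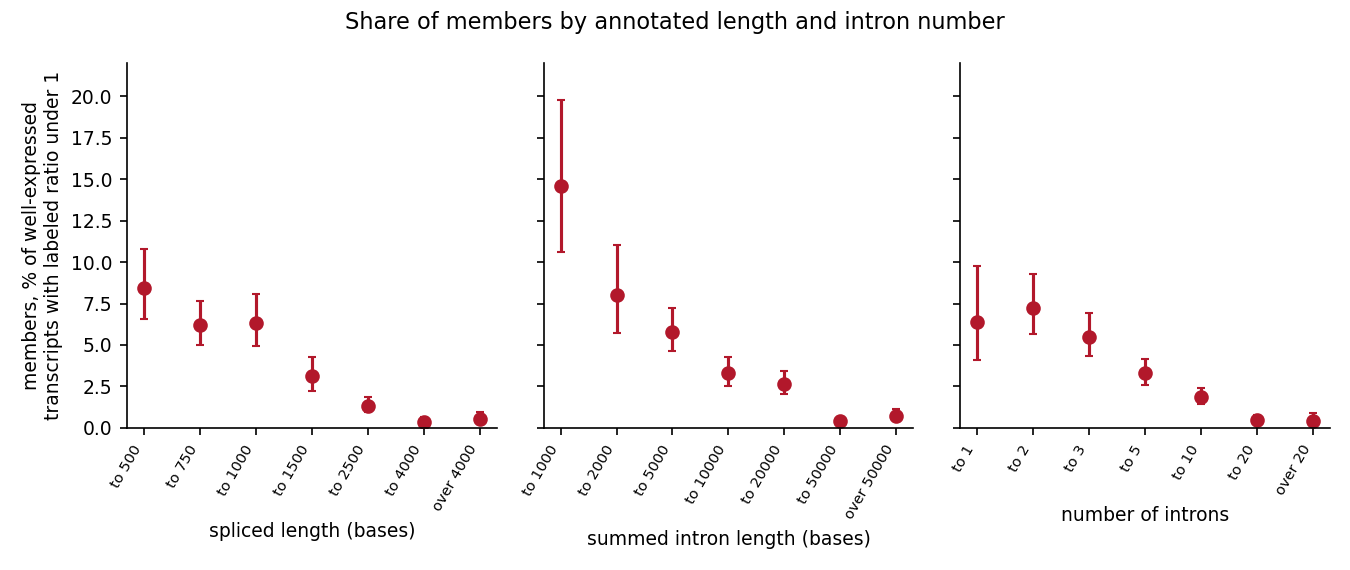
Members as a percentage of well-expressed transcripts with a labeled ratio under 1, in bins of spliced length, summed intron length and number of introns (points), with 95% Wilson intervals over transcripts (bars). The share is highest at the left of each panel or next to it, reaching 14.6% up to 1000 intron bases, and is under 1% at the right.

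The spliced members held 24.3% uridines (median), and the others 24.7%. Because members are short, the median member held 189 uridines and the median other transcript 558. G and C made up 50.5% of the letters of the median member and 48.0% of the others.

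Introns that are largely exon in another transcript of the gene were more frequent among members, although any such base was found in 88.6% of members and 91.9% of the others. Over 50% of the intron bases were exonic in the same gene in 49 members (17.4%, interval 13.4 to 22.3%), against 4.25% of the others. Exons of another coding transcript held over 50% in 15 members of 14 genes (5.34%, interval 3.26 to 8.62%), against 41 others (0.369%). Exons of a retained-intron transcript did so in 35 members (12.5%), against 2.88% of the others. Read the other way, of the 56 transcripts with a labeled ratio under 1 and over 50% of their intron bases in coding exons, 15 were members (26.8%, interval 17.0 to 39.6%). Of 10997 transcripts with neither kind of cover, 239 were members (2.17%), so most members had no such cover. The members had fewer intron bases (median 5301 against 20600), so fewer exonic bases are needed to pass 50%. No comparison at equal intron length was made, and the part of length in these shares was not tested.

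In the 15 members whose introns mostly are coding exons elsewhere, the intron value was higher in unlabeled RNA in 8 (53.3%). It was so in 9 of 27 members (33.3%) covered by a retained-intron transcript only, and in 60 of 239 (25.1%) with neither cover. Over all well-expressed transcripts the share was 1.74%. The rule used these values and the set is small, so nothing is read from the difference. The 15 members were of Actg1, Cct3, Gm14399, Cox17, Fubp3, Cnn3, Stk38, Ubl5, Dhx30, Rgs19, Rtel1, Pnma5, Rhno1 and Cic, a set taken whole by this annotation. Fubp3, which encodes a single-stranded DNA-binding protein, had intron values of 121 in labeled and 218 in unlabeled RNA beside exon values of 196 and 278. Rgs19, a regulator of G protein signaling, had intron values of 71.1 and 51.7 beside exon values of 99.3 and 46.7. In Rgs19 the single annotated intron of 658 bases is exonic in another coding transcript throughout. The sources used here do not say which bases an intron value covers where an intron overlaps an exon of another transcript. The intron values of Cct3, Cnn3, Rgs19, Srsf2 and the other covered members therefore cannot be told apart from exon reads of that transcript.

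Small RNA genes inside introns were not more frequent per transcript, without a comparison at equal intron length. A small RNA gene lay whole inside an intron on the same strand in 16 members of 10 genes (5.69%, interval 3.53 to 9.05%), against 8.50% of the others. Actg1 held Mir6935, Rpl12 held the small nucleolar RNA gene Snora65, Rpl30 held Gm24523, Peak1 held Gm24270 and 5 transcripts of Atf2 held Gm27421. Cep295, a centriole protein, held the small Cajal body RNA gene Scarna9 and Gm24339, with intron values of 61.7 and 86.4 beside exon values of 149 and 134. Exonic bases of another gene on the same strand lay in the introns of 40 members (14.2%), against 19.4% of the others, and exons on the opposite strand in 57 (20.3%), against 26.3%.

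Letters shared with other genes were more frequent among members, and values of such transcripts are uncertain because reads can be assigned to either gene. Over 50% of the 31-base words of the spliced transcript occurred in another gene in 58 members (20.6%, interval 16.3 to 25.8%), against 9.76% of the others. No word did in 84 members (29.9%) and 39.5% of the others. Of the members, 18 belong to 17 genes whose name is Gm and a number (6.41%, against 1.57%), and 17 of these 18 shared over 50% of their words. Gm21887, on chromosome X, had an exon value of 2035 in labeled and 1761 in unlabeled RNA and an intron value of 333 and 818. Gm49450 had exon values of 2140 and 3751 and intron values of 111 and 211, with every word shared. On chromosome 9 lay 8 of the Gm members, 7 of them with a higher intron value in unlabeled RNA (87.5%). It was so in 27.4% of all members and 1.74% of all well-expressed transcripts. Gm10718 had exon values of 379 and 456 and intron values of 177 and 227. In 7 members, all of Gm genes, the shortest annotated intron was under 30 bases (2.49%), against 32 of the others (0.288%). These 7 shared 79.1 to 94.9% of their words with another gene, so they may not be separate cases.

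The other transcripts of the 192 genes were followed as well. In 79 genes the member was the only well-expressed transcript, in 28 genes all of 2 or more well-expressed transcripts were members, and in 85 genes some were not. The 221 well-expressed transcripts of these genes that were not members and had a labeled ratio under 1 had a median log2 ratio difference of -1.30, between that of the members (0.43) and that of the transcripts of other genes (-2.80). Their median exon difference was 0.12 on the log2 scale, and their median spliced length 1073 bases. The abundance program divides the reads of a gene among its transcripts, so members and non-members of a gene are not independent.

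With values summed over the coding transcripts of a gene, 113 of 192 genes (58.9%) kept a labeled ratio under 1 and an unlabeled ratio not below it. All 6 well-expressed transcripts of Park7, a redox-sensitive chaperone linked to Parkinson disease, were members, and its summed values were 987 and 327 for exons and 101 and 75.9 for introns. All 5 of Mrpl55 and all 4 of the complex I subunit Ndufs5 were members too, with log2 gene ratio differences of 0.56 and 0.30. Eef1d, with 6 of 12 well-expressed transcripts, lost the excess, at -0.06, and so did Slc29a1, with 2 of 18, at -0.85. Srsf2, Actg1, Lamc1, Cct3 and Stk38 lost it too, at -0.15, -0.35, -0.66, -1.17 and -0.73. In 74 genes, these included, the summed unlabeled ratio was below the labeled one. In the other 5, Peak1, Cd59b, Plppr3, Echdc2 and Gm10717, it was not, but the summed labeled ratio was 1 or more. Retained-intron transcripts of the same genes were summed too. They share exons and reads with the members, so their values are not independent of the rule, and nothing is read from their direction. In Rpl30 the sum was 1992 in labeled and 514 in unlabeled RNA, and in Arhgap21 it was 127 and 186. In Rpl30 and Arhgap21 the exon and intron values were higher in the same library as this sum. In Hsd17b10 (159 and 98.1) and Serf2 (54.4 and 23.4) the sum was higher in labeled RNA, while the summed intron value was higher in unlabeled RNA. The retained-intron sum was higher in unlabeled RNA in 22 of the 102 member genes with a value above 0 (21.6%). It was so in 55.1% of the other well-expressed genes with such a value.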

How the data were processed

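RNA of 2 pools, labeled and unlabeled, was sequenced from 1 labeling, with 1 library per pool. Per the labels and the study's methods, the authors removed ribosomal RNA reads and quantified exonic and intronic sequences of each transcript with STAR 2.5.0 and RSEM. The deposited signal is a length-normalised abundance, 10 times TPM, with 1 exon value and, for 91702 transcripts, 1 intron value per library. Read counts were not used here, so depth is unknown and no error of a single value can be given.

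From there, ratios of intron to exon value and log2 differences between libraries were computed with Python 3.11.15, pandas 2.3.3 and numpy 2.4.6, and checked on simulated data. Lengths, introns, overlaps and spliced letters were taken from the GENCODE M21 annotation (build GRCm38), which held 98.1% of the transcripts. Shared letters were counted as 31-base words. Wilson intervals (scipy 1.17.1, 95%) cover the number of transcripts only. No test was run, because each pool is 1 library and the members were chosen by these values. The members, lists and comparisons were chosen with earlier results of these data known.

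Genes were named by the highest mean exon value (12), the largest difference of ratios at a mean exon value of at least 100 (12), the highest unlabeled intron value (8), and up to 4 per gene list with at least 2 member genes, 1 transcript per gene. Alternatives changed the exon minimum, the biotypes, a pseudocount, the intron minimum, the ratio limit and the unit (transcript or gene). Introns whose letters no annotated transcript holds were not analysed here.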

Additional observations from a re-analysis of the deposited data

How the results depend on the processing

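The share of members, 2.33%, was 2.09 to 2.51% with a mean exon value of at least 100, an intron value of at least 1 in each library, or sums per gene. It was 3.38% with a mean exon value of at least 10, 1.74% with an exon value of at least 40 in each library, 3.42% over all biotypes, 3.36% with a pseudocount of 1, 2.82% with 1 transcript per gene and 0.465% where the unlabeled ratio had to be at least 2 times the labeled one. That last limit by construction raised the median log2 difference of ratios to 1.51, and it gave a median intron length of 7920 bases, a nested small RNA share of 1.79% and a share of 96.4% with intron bases exonic on the same strand. Over all biotypes the median intron length was 3528 bases, the median intron count 2 and the same-strand exonic share 79.1%, and with a pseudocount of 1 the median intron length was 4093 bases. The cause of these shifts was not tested. In all 8 alternatives over the members, median intron length, median intron count and nested small RNA share stayed below those of the other transcripts. No paired analysis was possible because each pool is 1 library and no test was made. Unknown depth limits most the 15 members with an intron value under 1 in a library.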
